A study of Mus musculus with 8 samples.

Results

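Rik genes are mouse genes that still carry the clone names of the RIKEN full-length cDNA collection, because most of them have no assigned function. Of the 49997 genes counted in the EO771 mouse breast cancer cell line, 2300 had such names, and 1132 of these were at 0 in every library. The genes described here are the 224 Rik genes selected on their deposited counts (a mean of 30 or more across the 8 libraries), without D930030F02Rik, A930037H05Rik, 9930014A18Rik and 1700020L24Rik, which the rule left out. Because they were chosen by these counts, their abundance is given as a description only. A mean below 30 in at least 1 group was found in 34 of them, and 15 had a mean below 30 over the 3 groups other than their highest, so these 15 were selected through the group in which they were high and their fold changes are likewise a description. The last genes inside the limit were 9430053O09Rik (mean count 30.6), A630001O12Rik (31.0) and 1700016C15Rik (31.2), and the nearest outside it were 4930444A19Rik (29.9), 4930471E19Rik (29.2) and 2610027K06Rik (28.8). RefSeq lists 189 of the 224 as long non-coding RNA (lncRNA) genes, 32 as protein-coding, 2 as other RNA and 1 as a transcribed pseudogene.

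The libraries came from 2 experiments on EO771 cells, each with 2 replicates of every group. One experiment treated cells for 48 h with the vehicle (2% DMSO in saline) or with 12-HETE at 100 nM, a lipid made from arachidonic acid by 12-lipoxygenase. The other experiment used cells carrying an empty vector or one that overexpresses ADAR1 p150, the interferon-inducible isoform of an enzyme that converts adenosine to inosine in double-stranded RNA. Each contrast asks which genes differ between treated and control cells of the same experiment, and the labels name no other genotype or treatment. Neither the labels nor the methods say whether replicates were separate cultures. For its comparison of RNA editing between these groups, a figure legend of the paper gives 2 independent experiments. That legend does not name the libraries, so p-values measure only the spread between these libraries, which may be technical.

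Many lncRNA genes lie close to, or across, a protein-coding gene on the other DNA strand. Some start near the promoter of that gene and run away from it, and others are transcribed through its exons, so that the 2 transcripts hold complementary stretches. Antisense transcripts of this kind are known to affect their partner in some loci and to have no known effect in many others. Assigning a read to one or the other of an overlapping pair depends on a library kit that keeps the strand and on a counting step that uses it.

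The total count was between 1101767 and 1537037 per library, and both treated groups were sequenced more deeply than their controls. A single non-coding gene, AY036118, held between 44.4% and 50.3% of each library's counts. The 224 Rik genes held between 3.35% and 4.19%, or 6.42% to 7.55% once AY036118 was set aside. Adar, the gene that encodes ADAR1, had 181 and 140 counts in the ADAR1 p150 libraries against 2 and 8 under vector, a log2 fold change of 4.68 ± 0.32 (SE, adjusted p = 6.4e-14 in the quasi-likelihood fit of edgeR). Adar had 5 and 5 counts under vehicle and 7 and 6 under 12-HETE. Summed counts of the 5 mammary epithelial markers ran from 176 to 341 per library, those of 5 mesenchymal markers from 310 to 702, those of 5 immune markers from 11 to 28 and those of 3 endothelial markers from 1 to 11, with 1 epithelial, 1 mesenchymal and 2 immune markers at 0 throughout. In bulk RNA, fewer cells that express a gene and less of its RNA per cell cannot be told apart.

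The strand setting used for counting is not given in the sources used here, and this bears on every value of a gene that shares exons with another on the opposite strand. The methods name a directional kit, which keeps the strand. Actb, chosen after its values were seen, had between 364 and 1227 counts per library, and Gapdh, chosen in the same way, only 13 to 42, although both are among the most abundant transcripts of most cells. Whether reads of the opposite-strand gene were assigned to a Rik gene was not tested, since this would need the reads.

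To show what such sharing looks like, 30 bases of coding exon are printed for 3 pairs, with the middle 10 bases in capitals. B230344G16Rik was the most abundant of the 224 genes, E230016M11Rik was among those lower with both treatments, and 4930483K19Rik was higher with 12-HETE. Each pair reads 5′ to 3′ on its own strand of GRCm38 (exons of GENCODE M21), and each member of a pair is the reverse complement of the other. The windows lie at chr11:115988940-115988969, where B230344G16Rik is on the minus strand and Itgb4 on the plus strand, at chr6:67036753-67036782, where E230016M11Rik is on the plus strand and Gadd45a on the minus strand, and at chr10:76546122-76546151, where 4930483K19Rik is on the minus strand and Lss on the plus strand.
B230344G16Rik: gcgcgcccttTCTTCTCCCCggtgccccag
Itgb4: ctggggcaccGGGGAGAAGAaagggcgcgc
E230016M11Rik: tagcagcagcTCAGCTAGCCgacccgggtt
Gadd45a: aacccgggtcGGCTAGCTGAgctgctgcta
4930483K19Rik: attctgcaggAGCAGCACAGccttcaaacc
Lss: ggtttgaaggCTGTGCTGCTcctgcagaat

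The exons of the pairs overlapped over 537, 337 and 381 bases in all. A read from any of these stretches is told from its partner only by strand.

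Of the 224 Rik genes, 200 were matched by symbol to 1 gene of GENCODE M21. For 109 of them, exons overlapped those of a gene on the opposite strand by at least 200 bases, and in 108 of these pairs the other gene was protein-coding. A further 72 lay across an opposite-strand gene without that much exon overlap, 19 had no gene opposite them, and 24 were not assigned. Mean counts ran from 30.6 to 1806 with a median of 117. At least 500 counts were reached by 24 genes, 98 lay from 100 to under 500, and 102 lay below 100. The 10 genes with the most counts held 24.3% of all counts in the 224. Per kilobase of exon, the level ran from 3.91 to 1295 CPM (counts set to one library size with TMM factors) with a median of 49.5 over the 200 matched genes.

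The most abundant Rik genes lay opposite coding genes or across them. B230344G16Rik, opposite the laminin receptor subunit Itgb4, had 1620 and 1509 counts under vehicle, 1461 and 1391 under 12-HETE, 1623 and 1836 under vector and 2552 and 2454 under ADAR1 p150. Itgb4 itself had between 91 and 177 counts. B230206H07Rik, opposite the actin regulator gene Eps8l2, had 2053 and 1889 counts under vehicle, 1115 and 1164 under 12-HETE, 2097 and 2105 under vector and 1781 and 1769 under ADAR1 p150. Both 12-HETE libraries of B230206H07Rik lay below all others, and the log2 fold change of -0.98 ± 0.10 (adjusted p = 9.85e-10) was just short of 2-fold. The other genes among the 10 with the highest mean CPM were 1110051M20Rik, opposite the Golgi gene Arfgap2, A230103J11Rik, opposite the nuclear import receptor Tnpo2, E130317F20Rik, opposite the splicing repressor Ptbp1, and A130051J06Rik, opposite the phospholipid scramblase Ano6. They also included 1700007J10Rik at Mprip, 4933440N22Rik at the splicing factor Hnrnpf, 0610040F04Rik at the transcriptional repressor Bhlhe40, and 2900089D17Rik at the membrane protein gene Bri3. By raw mean count 2610020C07Rik (745), opposite the translation termination gene Gspt1, came before 2900089D17Rik (734).

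In 103 of the 109 pairs with overlapping exons the Rik gene had more counts than the gene opposite it, with medians of 162 and 12.4. In 66 pairs it had at least 10 times as many, and 51 of the opposite genes had a mean count under 10. The opposite gene had more counts in 6 pairs, as for 4732471J01Rik (65.1) and the hormone-sensitive lipase gene Lipe (379.8), 2200002D01Rik (72.0) and Yif1b (187), and 6230400D17Rik (165) and the vesicle coat gene Sec24c (241). Because a count of at least 30 chose the Rik gene of each pair and not its partner, this share is fixed in part by the rule. Over all non-coding Rik genes with exons opposite a protein-coding gene, whatever their count, 109 of 216 pairs summed to a mean of at least 30, and the Rik gene had more counts in 81.7% of these. Where instead the coding gene was required to reach 30, which left 36 pairs, the Rik gene had more in 52.8%.

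**Figure D1:**
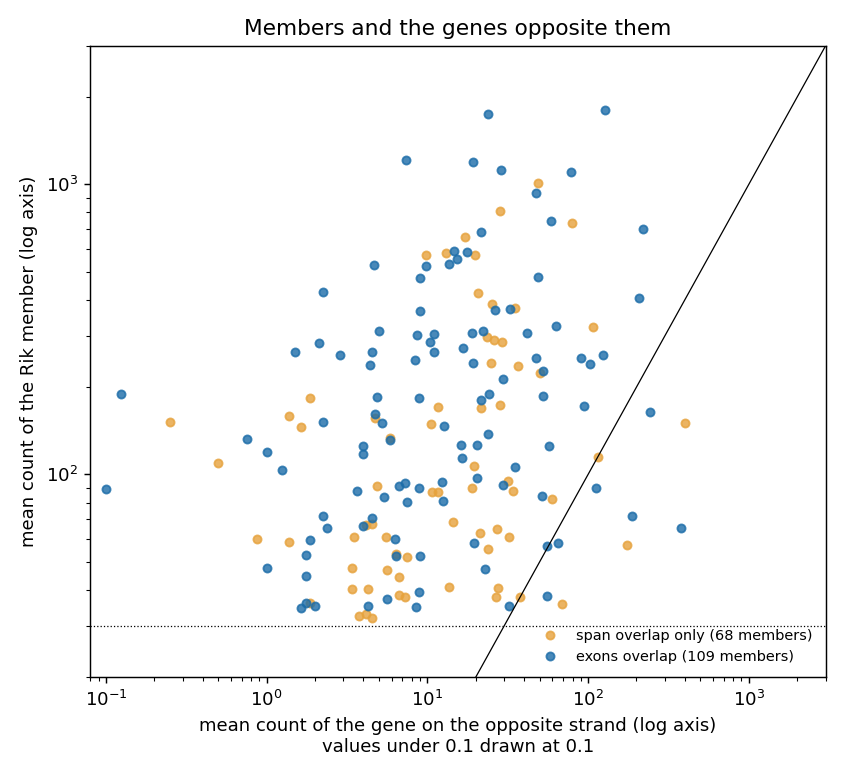
Mean count over 8 libraries of each Rik gene (vertical, log axis) against that of the gene on the opposite strand (horizontal, log axis), for 109 pairs with overlapping exons and 68 pairs in which a protein-coding gene was crossed without such overlap; the diagonal marks equal counts and the dotted line the limit of 30. Most points lie above the diagonal, with medians of 162 against 12.4 where exons overlapped.

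With 12-HETE, 25 of the 224 Rik genes changed at an adjusted p under 0.05 and at least 2-fold. Of these 9 rose (4.02% of the 224, against 6.12% of all 6901 genes tested) and 16 fell (7.14%, against 8.25%), and 12.9% of the 3219 genes with a mean of 30 or more were called in either direction. By adjusted p alone, 41.1% of the 224 passed, against 29.3% of all genes tested and 42.5% of those 3219. In 3 of the 9 rises the vehicle mean, and in 8 of the 16 falls the 12-HETE mean, was below the limit of 30 used for selection. Among the 25 called genes, 3 had a mean below 30 over the 3 groups other than their highest. Those 3 calls are a description and no test, although they are counted in the shares. With the 4 genes left out by the rule included, 10 rose and 19 fell. The median log2 fold change over the 224 was 0.10, against 0.0044 over all genes tested and 0.061 over the 3219 genes. Values ran from -3.65 to 2.69, and 137 genes lay within 0.5 of 0. The falls were all lncRNA genes (16 of 189), while 6 lncRNA, 2 protein-coding and 1 other gene rose.

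Among the genes that rose with 12-HETE was 4930483K19Rik, whose exons lie opposite Lss, the lanosterol synthase of cholesterol synthesis. It had 47 and 51 counts under vehicle, 179 and 176 under 12-HETE, 41 and 57 under vector, and 81 and 68 under ADAR1 p150. Both 12-HETE libraries stood above all others, with a log2 fold change of 1.67 ± 0.18 (adjusted p = 3.03e-09). A430105J06Rik, a lncRNA gene that lies 38 bases from the opposite-strand gene Rrp15, a ribosomal RNA processing factor, had 218 and 201 counts under vehicle and 572 and 569 under 12-HETE. The groups did not overlap, and the log2 fold change was 1.26 ± 0.12 (adjusted p = 1.79e-10). D830024N08Rik, across Tecr, a reductase of very long chain fatty acid synthesis, rose from 385 and 362 to 895 and 824 counts (1.01 ± 0.10), but was at 0.88 without vehicle replicate 5 and was not called by DESeq2. 9130023H24Rik, D130007C19Rik and 4930461C15Rik rose by 1.05, 1.16 and 1.26 on the log2 scale, and each lost the call when vehicle replicate 5 was left out, with values of 0.98, 0.97 and 0.95. 4930461C15Rik had a mean of 30 only through its 12-HETE libraries.

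Of the genes called lower with 12-HETE but not with ADAR1 p150, C030034L19Rik, which overlaps exons of the zinc finger gene Zfp704 by 2525 bases, went from 248 and 228 counts to 95 and 110. Its log2 fold change was -1.40 ± 0.14 (adjusted p = 9.2e-10), and its value with ADAR1 p150 was -0.98 ± 0.13, just inside the 2-fold limit. E030007A22Rik fell from 88 and 104 counts to 45 and 29 (-1.56 ± 0.21), and 9030607J07Rik from 61 and 52 to 20 and 21 (-1.65 ± 0.26). With ADAR1 p150 E030007A22Rik had -0.60 ± 0.18 (adjusted p = 0.0134) and 9030607J07Rik -0.99 ± 0.22 (adjusted p = 0.000757), the latter also just inside the 2-fold limit. In all 3 genes every 12-HETE library lay below both vehicle libraries. 9330175E14Rik, across Nlrc5, the transactivator of MHC class I genes, fell from 54 and 67 counts to 31 and 26 (-1.27 ± 0.24, adjusted p = 7.84e-05). 4930565N06Rik, across the Golgi matrix gene Golgb1, fell from 33 and 50 counts to 20 and 18 (-1.31 ± 0.28), and 2310015A10Rik from 34 and 46 to 17 and 10 (-1.75 ± 0.33).

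With ADAR1 p150, 26 of the 224 (11.6%, against 10.8% of genes with a mean of 30 or more) changed by the same criteria. Of these 14 rose (6.25%, against 8.11% of all genes tested) and 12 fell (5.36%, against 4.69%). This split turned with the scaling, to 9 higher and 15 lower with RLE factors, without AY036118, or without vehicle replicate 5, to 8 and 14 with DESeq2 and to 6 and 15 with no count minimum. By adjusted p alone, 40.2% of the 224 passed, against 25.6% of all genes tested and 36.7% of those with a mean of 30 or more. In 5 of the 14 rises the vector mean, and in 5 of the 12 falls the ADAR1 p150 mean, was below 30. Among the 26 called genes, 7 had a mean below 30 over the 3 groups other than their highest. Those 7 calls are a description and no test, although they are counted in the shares. With the 4 left-out genes included, 15 rose and 15 fell. The median log2 fold change was -0.11, against 0.066 over all genes tested and 0.019 over those whose mean count was 30 or more. Values ran from -2.26 to 4.73, and 153 genes lay within 0.5 of 0. All 12 falls were again lncRNA genes, and the 14 rises comprised 10 lncRNA, 3 protein-coding and 1 other gene. Exons opposite another gene, which 109 of the 224 had, were present in 8 of the 12 falls and 2 of the 14 rises, and in 6 of the 16 falls and 2 of the 9 rises with 12-HETE. These counts were not tested against each other, and the lists change with the scaling as stated.

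The gene furthest from its control was 2810408A11Rik, a protein-coding gene 85 bases from the opposite-strand gene Neurl4. It had 2 and 5 counts under vector and 119 and 115 under ADAR1 p150, and 3, 10, 11 and 6 in the libraries of the other experiment. It stood apart in both ADAR1 p150 libraries and was near the limit of detection in the other 6, where 3 counts corresponded to 1.95 to 2.72 CPM, with a log2 fold change of 4.73 ± 0.37. The pseudogene 6330549D23Rik went from 21 and 27 counts to 83 and 80 (1.47 ± 0.25). Both genes reached the mean of 30 only through the ADAR1 p150 libraries, so these values describe the selection and are no test. The protein-coding 1700001C19Rik, whose mean stayed above 30 in every group, rose from 34 and 37 counts to 125 and 111 (1.44 ± 0.21, adjusted p = 2.23e-06). With 12-HETE the log2 fold changes of 6330549D23Rik and 1700001C19Rik were 0.42 ± 0.31 and 0.07 ± 0.24. Smaller rises, between 1.02 and 1.08 on the log2 scale, were measured for 8 genes, among them 1700104B16Rik, 4930443O20Rik and C030005K06Rik, which lies opposite Tnfaip8. 4930443O20Rik and 1700110K17Rik, both among the 8, also had a mean of 30 only through ADAR1 p150. Of these 8, 6 were not called by DESeq2, another count model, and each of the 8 lost the call without at least 1 of vehicle replicate 5, vector replicates 1 and 2 and ADAR1 p150 replicates 1 and 2.

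Among the genes called lower with ADAR1 p150 but not with 12-HETE, A930001C03Rik, opposite the synaptotagmin gene Syt12, fell from 329 and 331 counts to 149 and 140. Its log2 fold change was -1.48 ± 0.12 (adjusted p = 1.01e-11), and that with 12-HETE was -0.72 ± 0.12. 4933439C10Rik, opposite the zinc finger gene Zkscan17, fell from 231 and 250 counts to 137 and 129 (-1.15 ± 0.13). With 12-HETE its log2 fold change was -0.68 ± 0.14 (adjusted p = 0.000204), a fall of under 2-fold. 2310001K24Rik, opposite Fitm2, a gene of lipid droplet formation, fell from 62 and 63 counts to 30 and 39 (-1.15 ± 0.23). It had 59 and 55 raw counts under vehicle and 62 and 53 under 12-HETE, where the libraries were deeper. Its log2 fold change with 12-HETE was -0.18 ± 0.21 (adjusted p = 0.58 in the edgeR fit). Without ADAR1 p150 replicate 1 its value with ADAR1 p150 was -0.92, under 2-fold.

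Called with both treatments were 11 genes, of which 8 fell with both and 3 rose with both. No gene was called in opposite directions. The share of all genes tested that was called with both treatments is not given here. These counts therefore describe the 224 and are not shown to be particular to Rik genes. The 2 contrasts use separate control libraries, although all libraries entered 1 fit. Over the 224 genes the log2 fold changes with 12-HETE and with ADAR1 p150 gave r = 0.521 (Pearson) and rho = 0.409 (Spearman), values over genes of the same libraries that are given as a description. Another 14 genes were called with 12-HETE alone, 15 with ADAR1 p150 alone, and 184 with neither. Of the 29 called with one treatment alone, the difference between the effects was itself called in 8.

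**Figure D2:**
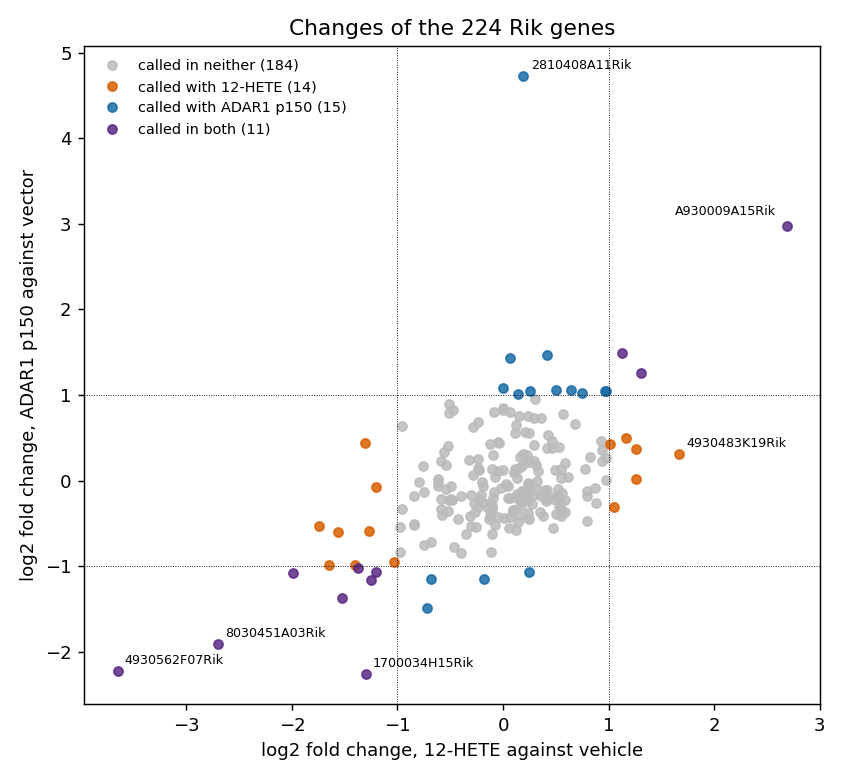
Log2 fold change of each of the 224 Rik genes with ADAR1 p150 against vector (vertical) plotted against that with 12-HETE against vehicle (horizontal); dotted lines mark a 2-fold change and colours mark the calls. The 11 genes called in both lie in the lower left (8) and upper right (3), and 2810408A11Rik stands alone at the top at 4.73.

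The largest shared fall was that of 4930562F07Rik, a lncRNA gene whose exons lie opposite another Rik gene, 4930523C07Rik. It had 73 and 95 counts under vehicle, 7 and 8 under 12-HETE, 64 and 93 under vector, and 21 and 20 under ADAR1 p150. All treated libraries lay below all controls, with log2 fold changes of -3.65 ± 0.31 and -2.22 ± 0.25. 8030451A03Rik, which lies across the gene of the matrix protein tenascin C (Tnc), had 114 and 81 counts under vehicle, 20 and 14 under 12-HETE, 85 and 96 under vector, and 30 and 29 under ADAR1 p150. Its log2 fold changes were -2.70 ± 0.25 and -1.90 ± 0.23, and again no treated library reached a control. In both genes no treated library exceeded 30 counts. Their mean of 30 was thus reached through the controls, and their values are a description and no test.

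1700101I11Rik, opposite the autophagy gene Gabarapl1, had 262 and 269 counts under vehicle, 70 and 82 under 12-HETE, 247 and 255 under vector and 160 and 132 under ADAR1 p150. Its log2 fold changes were -1.99 ± 0.14 and -1.08 ± 0.13. The second of these was just under 2-fold, at -0.99, without ADAR1 p150 replicate 2. 1700034H15Rik, opposite the zinc exporter gene Slc30a1, had 92 and 94 counts under vehicle, 48 and 38 under 12-HETE, 98 and 110 under vector, and 31 and 22 under ADAR1 p150. It was the gene of this group with the lower value under ADAR1 p150, at -1.30 ± 0.20 against -2.26 ± 0.22, and the difference of 0.96 ± 0.31 was short of the 2-fold limit.

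E230016M11Rik, opposite the DNA damage response gene Gadd45a, was one of the more abundant genes that fell. It had 695 and 698 counts under vehicle, 308 and 357 under 12-HETE, 701 and 721 under vector and 385 and 392 under ADAR1 p150, and its log2 fold changes were -1.25 ± 0.11 and -1.16 ± 0.11. 2900089D17Rik had 942 and 1026 counts under vehicle, 468 and 505 under 12-HETE, 986 and 860 under vector, and 573 and 509 under ADAR1 p150. It fell by 1.20 and 1.07 on the log2 scale, the second being -0.93 without vector replicate 1. A630001O12Rik (-1.52 and -1.37), which reached the mean of 30 only through the controls, and 1700055D16Rik (-1.37 and -1.02) completed the group of falls. For 1700055D16Rik the ADAR1 p150 value came to -0.96 when vector replicate 1 was left out and to -0.97 when ADAR1 p150 replicate 2 was.

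The 3 shared rises each lay across a coding gene. A930009A15Rik, a protein-coding gene across the R-spondin receptor gene Lgr5, had 11 and 12 counts under vehicle, 80 and 90 under 12-HETE, 6 and 6 under vector and 53 and 64 under ADAR1 p150. Its log2 fold changes were 2.69 ± 0.28 and 2.97 ± 0.35, and no treated library overlapped a control. Its mean reached 30 only through the treated libraries, so that its values are a description and no test. 4930597O21Rik, across the G protein subunit gene Gng12, had 226 and 213 counts under vehicle, 641 and 599 under 12-HETE, 130 and 229 under vector and 522 and 525 under ADAR1 p150. It rose by 1.31 ± 0.13 and 1.26 ± 0.14, and the latter was 0.93 without vector replicate 1. 2310016G11Rik, across the non-muscle myosin gene Myh14, rose from 15 and 25 to 55 and 45 counts (1.13 ± 0.28) and from 32 and 30 to 124 and 90 (1.49 ± 0.23). Its rise with 12-HETE was not called without vehicle replicate 4, at 0.83 (adjusted p = 0.067).

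**Figure D3:**
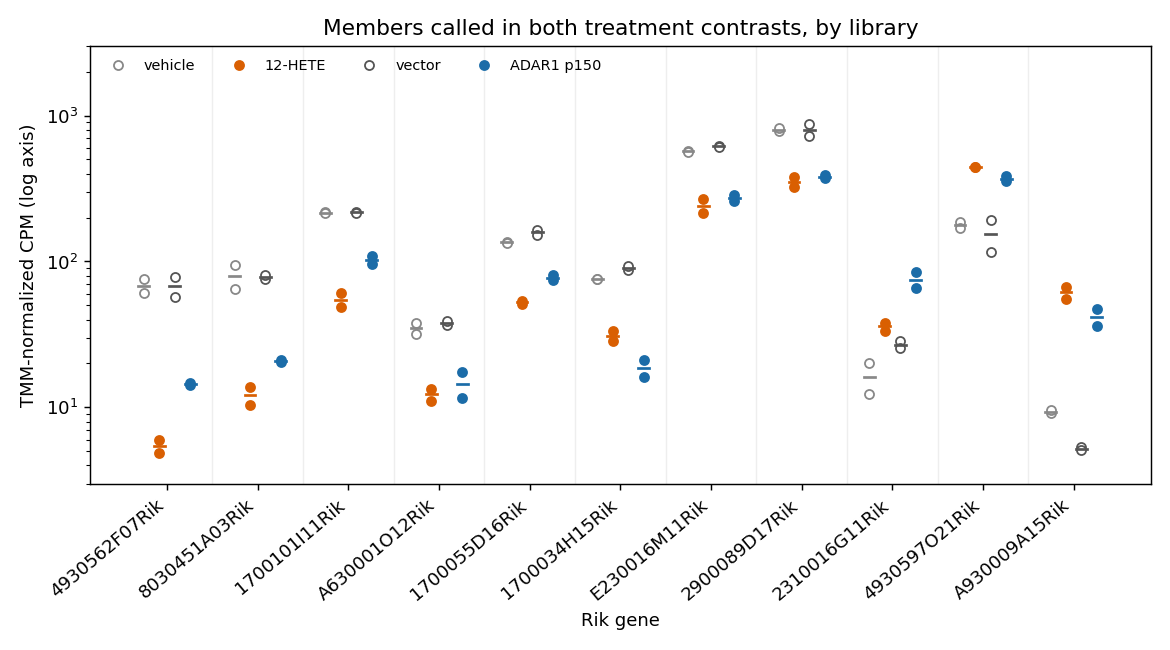
TMM-normalised CPM (log axis) of the 11 Rik genes called with both treatments, as 1 point per library with a bar at the group mean, open for controls and filled for treated libraries. In each gene the treated points lie on one side of the controls of the same experiment, below them in 8 genes and above them in 3.

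The effects of 12-HETE and ADAR1 p150 differed by at least 2-fold at an adjusted p under 0.05 in 16 genes (7.14%, against 8.33% of all genes tested), and in 17 with the left-out genes included. The log2 effect of 12-HETE was the higher in 7 and the lower in 9, a split that was 9 and 9 with RLE factors, 10 and 6 with no count minimum, 10 and 7 without vector replicate 1, 7 and 5 without vehicle replicate 5, 13 and 8 without ADAR1 p150 replicate 2, and 43 and 23 by adjusted p alone. Besides 2810408A11Rik, A430105J06Rik and 4930483K19Rik, these included A230020J21Rik, opposite Flvcr1, a membrane transporter. It had 270 and 225 counts under vehicle, 553 and 486 under 12-HETE, 232 and 247 under vector and 223 and 267 under ADAR1 p150, so both 12-HETE libraries stood above the other 6. Its difference was 1.13 ± 0.18, and was 0.97 without vehicle replicate 5 and 0.96 without ADAR1 p150 replicate 1. D930015M05Rik, opposite the circadian repressor gene Cry2, had opposite signs, with 52 and 52 counts against 32 and 29 under 12-HETE (-0.96 ± 0.23, adjusted p = 0.00182) and 60 and 63 against 114 and 120 under ADAR1 p150 (0.64 ± 0.18, adjusted p = 0.00872). 4833427F10Rik did likewise, with log2 fold changes of -0.51 ± 0.17 and 0.80 ± 0.15 and a difference of -1.30 ± 0.23. Neither gene was called with either treatment alone, which held for 7 of the 16.

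**Figure D4:**
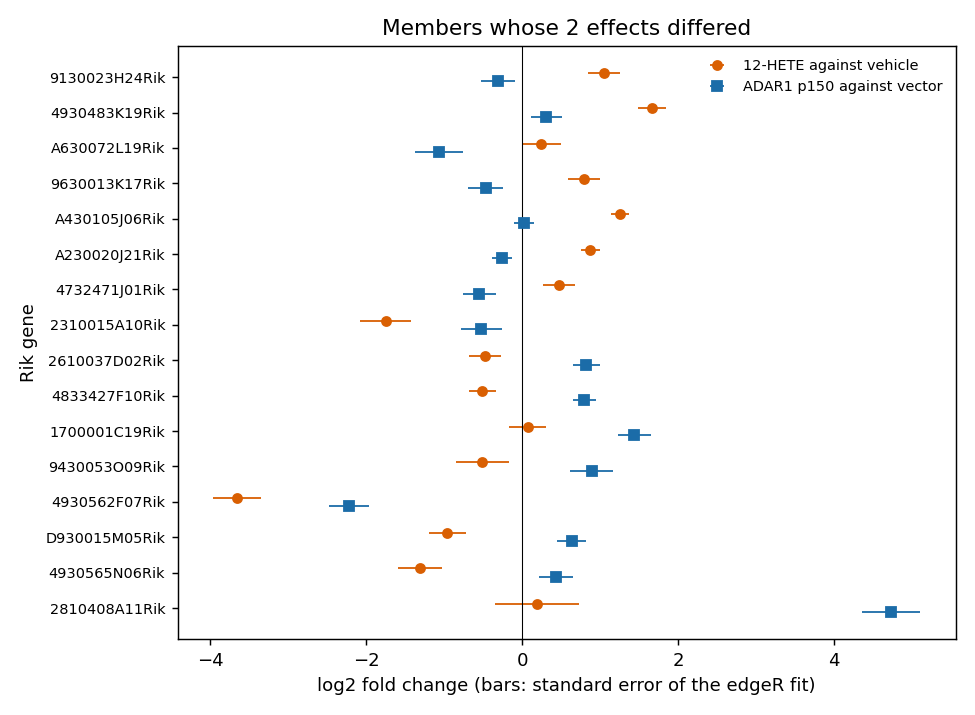
Log2 fold changes with 12-HETE (circles) and with ADAR1 p150 (squares) of the 16 Rik genes whose effects differed, with bars for the standard error of the edgeR fit. The pairs of points lie on opposite sides of 0 in several genes, such as D930015M05Rik at -0.96 and 0.64, and 2810408A11Rik has the widest gap.

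The gene opposite a Rik gene could be tested in 58 of the 109 pairs with overlapping exons. Across these pairs the log2 fold changes of the Rik gene and its partner gave r = 0.389 (Pearson) and rho = 0.390 (Spearman) with 12-HETE, and 0.254 and 0.177 with ADAR1 p150, given as a description because both genes come from the same libraries. They had the same sign in 36 and 31 of the 58. The partners were measured less precisely, with a median SE of 0.302 and 0.291 against 0.126 and 0.126 for the Rik genes.

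Individual loci differed. At Gng12 and Bri3 the Rik gene lies across the coding gene without 200 bases of exon overlap, so these loci are not among the 58. Gng12 moved as 4930597O21Rik did, with 15 and 15 counts against 43 and 45 under 12-HETE (1.36 ± 0.34, adjusted p = 0.0021) and 6 and 13 against 42 and 22 under ADAR1 p150 (1.44 ± 0.39, adjusted p = 0.00537). Bri3 had log2 fold changes of -0.85 ± 0.18 and -1.27 ± 0.19 beside the falls of 2900089D17Rik. Lipe and 4732471J01Rik had opposite signs in both experiments. Lipe had 288 and 333 counts under vehicle, 286 and 252 under 12-HETE, 323 and 359 under vector and 610 and 587 under ADAR1 p150, which gave -0.40 ± 0.11 and 0.52 ± 0.10, while 4732471J01Rik had 0.47 ± 0.20 and -0.55 ± 0.21. Syt12 had -0.90 ± 0.17 with 12-HETE and -0.03 ± 0.15 with ADAR1 p150, beside -0.72 ± 0.12 and -1.48 ± 0.12 for A930001C03Rik. Lss, Gabarapl1, Slc30a1, Cry2, Flvcr1 and Tnc had mean counts between 1.38 and 5.00, too few to be tested.

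Vector and vehicle cells, the 2 control groups, did not differ by these criteria in any of the 224 genes (0 called, against 0.0435% of all genes tested). DESeq2 also called 0, and 18 genes had an unadjusted p under 0.05 in edgeR. Log2 differences ran from -0.84 to 0.71, and 219 genes lay within 0.5 of 0. Their median was 0.13, against -0.0083 over all genes tested and 0.063 over those with a mean of 30 or more. This median between controls was no smaller in size than those of the 2 treatments. The median coefficient of variation between the 2 libraries of a group was between 6.36% and 7.93%.

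Genes of known product or function were counted for comparison. Of 16 Rik names of characterised genes, 3 were in the table and 0 had a mean count of 30 or more. Of 32 well-studied lncRNA genes, 31 were in the table, 3 of them were at 0 in every library and 3 had a mean count of 30 or more. Of the 6 that could be tested, 0 rose and 2 fell with 12-HETE, and 1 rose and 1 fell with ADAR1 p150.

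Promoters from RefSeq (GRCm38.p6), taken as 250 bases before to 50 bases after the annotated start, were found for 180 of the 224 genes, with a median GC content of 57.3% against 52.7% over all 27025 promoters in the table. On both strands, CCAAT was present in 31.1% of the 180 (37.9% of all promoters), TATAAA in 5.56% (14.2%), CACGTG in 8.33% (7.24%) and TGACTCA, the core of the binding sequence of AP-1 factors, in 3.33% (5.17%). Among the 8 genes that fell with both treatments, CCAAT was present in 4 and TGACTCA in 2, and none of the 4 motifs was found in the 3 that rose with both. The 2 promoters with TGACTCA are printed 5′ to 3′ with this motif in capitals, as genes chosen after the search. That of 8030451A03Rik lies at chr4:63984481-63984780 and that of E230016M11Rik at chr6:67036349-67036648, both on the plus strand. A match describes the sequence and not a bound site.
8030451A03Rik: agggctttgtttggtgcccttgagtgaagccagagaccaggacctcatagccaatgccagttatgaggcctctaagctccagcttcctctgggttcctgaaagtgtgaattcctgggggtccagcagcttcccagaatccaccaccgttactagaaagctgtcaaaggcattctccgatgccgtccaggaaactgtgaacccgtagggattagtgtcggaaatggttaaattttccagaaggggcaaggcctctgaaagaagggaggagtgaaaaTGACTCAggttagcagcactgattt
E230016M11Rik: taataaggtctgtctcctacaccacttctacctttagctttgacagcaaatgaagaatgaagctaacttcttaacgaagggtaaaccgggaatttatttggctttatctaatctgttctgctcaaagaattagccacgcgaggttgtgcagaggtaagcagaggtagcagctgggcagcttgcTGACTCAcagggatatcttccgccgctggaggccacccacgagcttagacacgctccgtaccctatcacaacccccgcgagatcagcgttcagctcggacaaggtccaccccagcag

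The motif began 25 bases after the annotated start of 8030451A03Rik and 67 bases before that of E230016M11Rik.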

How the data were processed

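RNA from 8 libraries of EO771 cells was analysed from the gene counts that the authors deposited, which are raw counts without normalization. For these files the authors used FastQC for read quality, prinseq to remove duplicate reads, STAR to align pairs to GRCm38 and featureCounts to count fragments. The methods name Trizol and a directional kit, whereas the labels name a column-based extraction and another library kit, and the strand setting of counting is not given in the sources used here. Because duplicates were removed, counts understate the original reads, most for abundant genes.

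Genes whose mean count reached 10 were kept (6901 of 49997). All 8 libraries were fitted together with a coefficient per group in edgeR 4.0.16 (limma 3.58.1, R 4.3.3) with TMM factors and the quasi-likelihood test. The Benjamini-Hochberg adjustment ran over all genes tested, and a call needed an adjusted p under 0.05 together with a change of at least 2-fold. The SE was the size of the log2 fold change divided by the square root of F. The study's methods use DESeq2, which was run here (version 1.42.0) as an alternative. Other alternatives were RLE factors, other count minimums, a fit of the 4 libraries compared, a replicate block, adjusted p alone, and leaving out each library. A crossed block and a fit without AY036118 were added after seeing the data.

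Positions and RNA types were taken from RefSeq, and strands and exons from GENCODE M21, by gene symbol. The genes, the lists and the tests were chosen with earlier results of these data known. The text names the 10 genes of highest mean CPM, up to 8 rises and 8 falls per contrast, genes called in both contrasts, 6 genes with different effects, genes next to the limit of 30 and genes opposite these. D830024N08Rik, 9330175E14Rik, 4930565N06Rik, C030005K06Rik, 2610020C07Rik and 4732471J01Rik fall outside this rule and were chosen after their values were seen. On simulated data for 12-HETE against vehicle (6901 genes, 200 changed 4-fold) the procedure called 177 of the changed genes and 9 unchanged ones. It called 0 for ADAR1 p150 against vector, where no gene had been changed. Simulated rises and falls were equal in number, so the run does not address the scaling. Replicates of a group differed by more than sampling noise (mean chi-square per gene 1.39 to 1.71). Floors of 3 counts cover counting error only.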

Additional observations from a re-analysis of the deposited data

Results flagged for a closer look

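In 16 Rik genes the effects of 12-HETE and ADAR1 p150 differed by the interaction test of edgeR (adjusted p under 0.05 and at least 2-fold). Values are the log2 effect of 12-HETE minus that of ADAR1 p150, with 2 libraries per group. No group holds the 4 libraries that a search for outlying samples needs.

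The effect of 12-HETE was the higher in A430105J06Rik (1.23), A230020J21Rik (1.13), 4930483K19Rik (1.35), 9130023H24Rik (1.36), 9630013K17Rik (1.26), 4732471J01Rik (1.02) and A630072L19Rik (1.32). It was the lower in 2810408A11Rik (-4.53), 4833427F10Rik (-1.30), D930015M05Rik (-1.59), 4930565N06Rik (-1.75), 2610037D02Rik (-1.30), 1700001C19Rik (-1.37), 9430053O09Rik (-1.40), 4930562F07Rik (-1.43) and 2310015A10Rik (-1.22). Of these, 4930562F07Rik was lower with both treatments. Its difference was not called by DESeq2 and kept its call in 2 of the 8 fits that left out 1 library. The calls of 9 of the 16 held in all 8 such fits, and 11 of the 16 were also called by DESeq2. For 2810408A11Rik the value was -3.49 without vehicle replicate 5 (adjusted p = 0.0509). Its selection rested on the ADAR1 p150 libraries, in which it is high, so its difference is a description. The same holds for 9430053O09Rik (65 and 49 counts under ADAR1 p150, 17 to 32 in the other libraries) and for A630072L19Rik. Each of them reached the mean of 30 only through its highest group, and neither difference was called by DESeq2.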

How the results depend on the processing

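Counting genes by adjusted p alone, with no limit on fold change, gave 92 with 12-HETE, 90 with ADAR1 p150 and 66 for the difference, in place of 25, 26 and 16. Those are 41.1%, 40.2% and 29.5% of the Rik genes, against 29.3%, 25.6% and 14.97% of all genes tested and 42.5%, 36.7% and 25.5% of genes with a mean of 30 or more. Under the other settings the totals stayed within 1.5 times of these, while the split into rises and falls did not, from 14 and 12 to 6 and 15 with ADAR1 p150 under no minimum. With 12-HETE it went from 9 and 16 to 7 and 20 without AY036118 or with no minimum. DESeq2 called 25, 22 and 12, and 24, 19 and 11 of the calls in the report were among them. With 1 library left out the counts ran from 24 to 30, from 22 to 27 and from 12 to 21, and 18, 12 and 9 of the called genes kept their call in all 8 such fits. For vector against vehicle the count was 0 throughout. Of the 11 genes called with both treatments, 6 kept both calls without any 1 library, and all 11 were called by DESeq2.

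The median log2 fold change over the Rik genes was close to 0 and moved with the setting. With 12-HETE it was 0.10, and 0.030 without AY036118. It ran from -0.0025 (without vehicle replicate 5) to 0.14 with 1 library left out. With ADAR1 p150 it was -0.11, and -0.21 with no count minimum. It ran from -0.16 (without vehicle replicate 5) to -0.057 (without ADAR1 p150 replicate 1). The cause was not tested.

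Same-numbered replicates did not deviate together (correlation -0.0798 in the 12-HETE experiment and -0.114 in the other). With 2 libraries per group this cannot tell whether same-numbered libraries were handled together. With the replicate number as a block, 25, 26 and 15 genes were called and the medians were 0.11 and -0.11. With crossed pairing, 26 and 17 were called for ADAR1 p150 and the difference. No paired analysis was possible for vector against vehicle because these groups share no replicate number.

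For the named genes, 1188 of the recomputed values kept their direction and their side of an adjusted p of 0.05. Another 46 no longer passed it, 7 newly passed it, 24 changed sign without passing it, and 0 that passed it reversed. The 2-fold limit did not enter this tally, so genes that lost a call only by falling under 2-fold count as kept. At these depths, genes of under 100 counts carried the widest errors.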
